A study of Mus musculus with 6 samples.

Results

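Neuropeptide receptors were followed in RNA-seq of the mouse hypothalamus with and without the steroid receptor coactivator SRC-1. The set held 44 genes chosen by symbol, 41 receptors and 3 receptor activity-modifying proteins (RAMPs), out of 50559 genes in the counts table. All 44 had a row, and 43 had at least 10 counts summed over the 6 libraries. Among these 43 the total ran from 126 counts for Npffr2 to 123270 for Adcyap1r1. Ghrhr, the receptor of growth hormone-releasing hormone, lay just outside the minimum, with 2, 1 and 1 counts in the knockout libraries and 2, 0 and 3 in the wild-type libraries. The samples were 3 libraries labelled SRC1 KO and 3 labelled wild type, all from hypothalamus with no treatment named. The sources used here do not give age, strain or the design of the deleted allele. They do not say whether the libraries of a group come from separate animals either, so the p-values reflect only how these libraries differ from each other, and that spread may be technical.

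Neuropeptides are released by neurons and act mostly on G protein-coupled receptors, often at a distance from the site of release. Receptors of the rhodopsin family bind short peptides such as somatostatin, galanin, opioids and neurotensin, while those of the secretin family bind longer ones such as corticotropin-releasing hormone, GLP-1, calcitonin and PACAP. RAMPs are small membrane proteins that pair with the calcitonin and calcitonin-like receptors and set which peptide they recognise. In the hypothalamus these receptors are known for relaying signals of hunger, stress, body temperature, daily rhythm and hormone release.

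Library totals ran from 39341074 to 46755553 counts in the knockout and from 36613507 to 42191925 in wild type. Ncoa1, which encodes SRC-1, had 1692, 1478 and 1766 counts in knockout replicates 1 to 3, against 5180, 4630 and 5406 in wild-type replicates 1 to 3, so every library matched its label (log2 fold change -1.71 ± 0.065, SE; adjusted p 1.87e-06 by edgeR). All 15 marker genes of hypothalamic neurons were detected, and their summed level was 798 to 1009 CPM (the count scaled to a common library size with TMM, edgeR's factors for library composition) in the knockout and 825 to 1041 CPM in wild type. Of these 15, 10 had a log2 fold change below 0 and the median was -0.45, with 1 higher and 2 lower at an unadjusted p under 0.05 and none past the threshold (adjusted p under 0.05 by edgeR). Some markers of other cells and of neighbouring regions did pass it. The 12 ependymal and tanycyte markers summed to 75 to 98 CPM in the knockout and 212 to 220 CPM in wild type, with 8 of 12 past the threshold and lower. The 12 oligodendrocyte markers summed to 6995 to 9326 CPM in the knockout and 4307 to 5514 CPM in wild type, with 6 of 12 past it and higher. The 11 meningeal fibroblast markers, with 1 of 11 past it and lower, summed to 63.6 to 68.9 CPM in the knockout and 72.3 to 296 CPM in wild type. All 11 had a log2 fold change below 0 (median -1.5), with 5 lower and 0 higher at an unadjusted p under 0.05. Of 11 pituitary markers, 1 of 8 tested was past the threshold and lower. The list summed to 23.2 to 42.9 CPM in the knockout and 25.2 to 46.7 CPM in wild type. Of the 8 tested, 6 were below 0 (median -1.63), with 5 lower and 0 higher at an unadjusted p under 0.05. The 11 choroid plexus markers summed to 63.4 to 87.1 CPM in the knockout and 85.6 to 121 CPM in wild type, with 3 of 9 tested lower at an unadjusted p under 0.05 and none past the threshold. Among markers of neighbouring regions, 1 of 8 for the thalamus was past it and lower (Lhx2, log2 fold change -0.90 ± 0.16 SE). However, 6 of these 8 were above 0, with 1 higher and 1 lower at an unadjusted p under 0.05. For the striatum 1 of 9 was past the threshold and lower (Lrrc10b, -0.90 ± 0.17). Of these 9, 6 were below 0, with 1 higher and 4 lower at that unadjusted p. For cortex, hippocampus and amygdala 1 of 11 tested was past the threshold and higher (Tbr1, 2.26 ± 0.24). Of these 11, 5 were below 0 and 6 above, with 1 higher and 3 lower at that unadjusted p. The summed level was 449 to 476 CPM in the knockout and 414 to 456 CPM in wild type for the thalamus, 137 to 162 CPM in the knockout and 142 to 171 CPM in wild type for the striatum, and 198 to 214 CPM in the knockout and 212 to 228 CPM in wild type for the cortical list. The 12 neuron markers summed to 6719 to 7493 CPM in the knockout and 6303 to 6928 CPM in wild type, with none past the threshold. Of these 12, 9 were above 0 and 3 below (median 0.11), with 2 higher and 0 lower at an unadjusted p under 0.05. The part of these shifts in the receptor values was not tested, and in whole tissue fewer cells of a type and less RNA per cell cannot be told apart.

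The level of a receptor transcript was compared between genes as CPM per kb of exon. Ntsr2, a neurotensin receptor known mainly from astrocytes, had the highest level, at 109 ± 12.9 in the knockout and 85.3 ± 4.81 in wild type (SD, n = 3 each, as for all levels given with ±). Adcyap1r1, the PACAP receptor, followed with 68.6 ± 4.32 in the knockout and 69.2 ± 6.61 in wild type. Oprl1, the nociceptin receptor, had 25.0 ± 0.903 in the knockout and 27.6 ± 3.33 in wild type. In wild type these levels did not overlap between the libraries of one gene and the next, and neither did those of Oprl1 and Calcr, the calcitonin receptor, the fourth in the order at 12.4 ± 2.47. Together Ntsr2, Adcyap1r1 and Oprl1 made up 63.7% to 67.3% of the summed CPM per kb of the 44 genes in the knockout libraries and 59.0% to 60.9% in the wild-type libraries, ranges that did not meet. Among these genes only Ntsr2 had a higher mean in the knockout than in wild type. The other 41 summed to 103 to 113 CPM per kb in the knockout and 111 to 129 in wild type, which overlapped.

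Below the leading genes the order was shallow. In wild type 5 genes reached 10 CPM per kb, 28 lay between 1 and 10, and 11 lay under 1. Of the 43 steps from one gene to the next, 36 joined genes whose wild-type libraries overlapped, so most ranks are not separated by these data. Ramp2 (11.1 ± 2.05), the somatostatin receptor Sstr1 (9.01 ± 1.18), the kappa opioid receptor Oprk1 (7.81 ± 1.33) and Ramp1 (7.65 ± 0.197) came next in wild type, and each overlapped the one before it. At the low end stood the neuropeptide FF receptor Npffr2 (0.313 ± 0.0649) and Vipr1 (0.211 ± 0.0372), a receptor of VIP and PACAP, which were apart from each other. Ghrhr, last, had 0.0181 ± 0.0165.

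**Figure D1:**
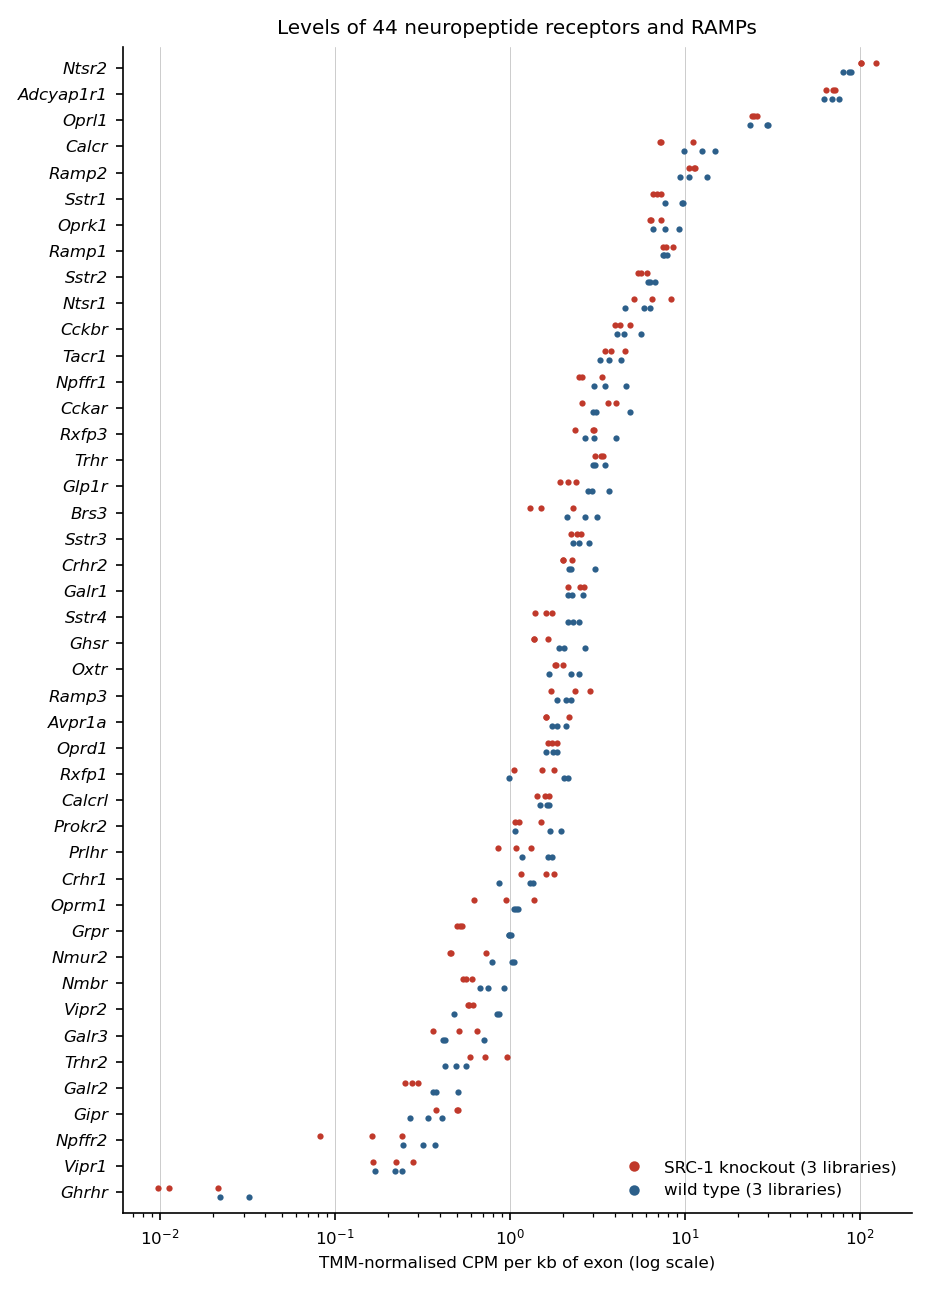
Level of each of the 44 genes, ordered by the wild-type mean, in CPM per kb of exon on a log axis. Each point is 1 library, knockout in red above and wild type in blue below on each line; the wild-type library with 0 counts of Ghrhr is not drawn. Ntsr2, Adcyap1r1 and Oprl1 stand apart at the top, and most neighbours further down overlap.

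The comparison of genotypes asked which of these receptors differ in transcript level when SRC-1 is deleted. Of the 43 genes tested, 1 passed the adjusted threshold, Grpr, which was lower in the knockout (edgeR quasi-likelihood test, Benjamini-Hochberg adjusted over all 20257 genes tested, adjusted p under 0.05). This compares with 0.834% of all genes tested that passed in either direction and 0.592% that passed and were lower. At an unadjusted p under 0.05 there were 13, of which 11 were lower and 2 higher in the knockout, that is 30.2% of the 43, against 13.0% of all genes. The lower ones made up 25.6% of the 43, against 7.21% of all genes, and the higher ones 4.65%, against 5.75%. In 10 genes all knockout libraries lay below all wild-type libraries, against 9.03% of all genes, and in 2 genes they all lay above, against 8.58%. In either direction that is 12, or 27.9% of the 43, against 17.6% of all genes. The log2 fold change (knockout over wild type) was below 0 in 31 of the 43, 72.1%, against 48.9% of all genes, and its median was -0.14, against 0.0042 over all genes. DESeq2 passed 5 of the 43, Grpr, Ghsr, Ntsr2, Sstr1 and Calcr, against 4.05% of all genes. The genes were chosen with earlier results of these data known, so these shares describe the set and do not test it.

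**Figure D2:**
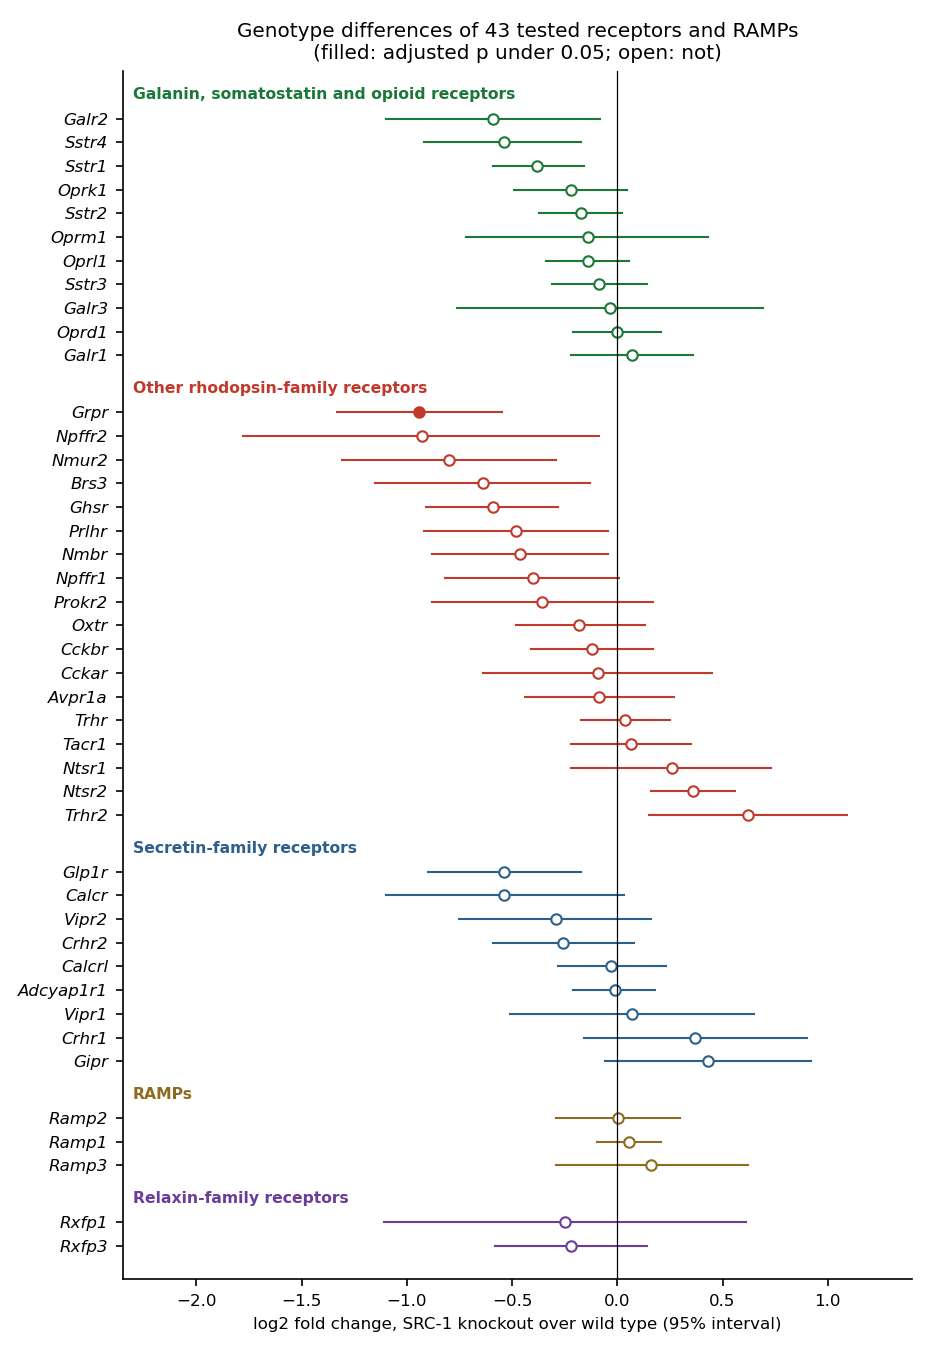
Log2 fold change, knockout over wild type, of the 43 tested genes in their families, with 95% intervals from edgeR. Grpr, at -0.94, is the 1 filled point (adjusted p under 0.05); most points of the galanin, somatostatin and opioid group and of the other rhodopsin-family receptors lie left of 0, and all 3 RAMPs lie close to it.

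Grpr, the receptor of gastrin-releasing peptide and a member of the bombesin receptor family, fell in the knockout. It had 56, 51 and 63 counts in knockout replicates 1 to 3, against 104, 96 and 108 in wild-type replicates 1 to 3, or 1.33, 1.29 and 1.38 CPM in the knockout against 2.55, 2.54 and 2.60 CPM in wild type. The groups lay far apart and each was tight. Knockout over wild type, this is a log2 fold change of -0.94 ± 0.17 (SE; adjusted p 0.0421 by edgeR), and the 95% interval put the knockout level at 39.9% to 68.2% of wild type. The spread was 0.0477 CPM in the knockout and 0.0335 CPM in wild type (SD, n = 3 each), below the 0.178 CPM (knockout) and 0.253 CPM (wild type) that counting error alone gives at this depth, so the replicates lay closer together than counting alone would place them. The fold change ran from -0.97 to -0.91 over 15 alternative settings, while the adjusted p ran from 0.00518 to 0.399 and passed in 5 of them. It missed the threshold with any 1 library left out (0.0669 to 0.174), without both first replicates (0.399), with library totals alone (0.0576), with a stricter expression filter (0.0509) and with a replicate block (0.0638).

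Grpr lies on the X chromosome at 162296900 to 162332732 on the minus strand of GRCm39. The 250 bases before its RefSeq start are printed because it is the receptor that passed, beside those of Ghsr, the ghrelin receptor and next lowest in p. Both are from RefSeq (promoter table of GRCm38.p6) and were placed on GRCm39 by exact match, and 33 of the 44 genes had an entry in that table. The motifs AGGTCA, a half-site bound by many nuclear receptors, and TGACGT, the core of the cyclic AMP response element, were searched on both strands after the sequences were seen, and matches are in capitals.
Grpr, chrX:162332733-162332982, minus strand: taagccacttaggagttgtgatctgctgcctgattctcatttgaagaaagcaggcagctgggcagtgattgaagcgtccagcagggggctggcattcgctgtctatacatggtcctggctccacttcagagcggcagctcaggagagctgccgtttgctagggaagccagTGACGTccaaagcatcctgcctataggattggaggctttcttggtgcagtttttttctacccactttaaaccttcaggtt
Ghsr, chr3:27425250-27425499, plus strand: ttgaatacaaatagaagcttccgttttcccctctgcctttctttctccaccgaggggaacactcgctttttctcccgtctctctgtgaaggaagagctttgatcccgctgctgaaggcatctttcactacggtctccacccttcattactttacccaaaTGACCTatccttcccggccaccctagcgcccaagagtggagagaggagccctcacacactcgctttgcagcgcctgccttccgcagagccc
The Grpr window held TGACGT on its own strand, beginning 80 bases before the start. The Ghsr window held AGGTCA on the opposite strand, which reads TGACCT on the printed strand, beginning 91 bases before the start. Of 32851 such windows in the table, 6.47% held TGACGT and 14.0% held AGGTCA on either strand. A match describes these letters and no binding was measured.

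The other bombesin-family receptors had lower values in the knockout and did not pass by edgeR. Brs3, an orphan receptor whose loss makes mice obese, had 3.60, 4.16 and 6.33 CPM in knockout replicates 1 to 3 and 7.45, 5.89 and 8.69 CPM in wild type. Knockout replicate 3 lay above wild-type replicate 2, so the groups overlapped, with a log2 fold change of -0.64 ± 0.23 (SE; adjusted p 0.258 by edgeR). It passed in 1 of 15 alternatives, with no expression filter (0.0252), and the adjusted p reached 0.984 without both first replicates. Nmbr, the neuromedin B receptor, had 1.91, 1.76 and 1.71 CPM in the knockout and 2.92, 2.14 and 2.36 CPM in wild type, groups that did not overlap, with -0.46 ± 0.19 and an adjusted p of 0.325 by edgeR.

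Among receptors known from feeding circuits, Ghsr had 8.01, 8.04 and 9.64 CPM in the knockout, against 12, 11.1 and 15.7 CPM in wild type. The groups did not overlap, with wild-type replicate 3 the highest. The knockout level was 53.3% to 82.4% of wild type (log2 fold change -0.59 ± 0.14, SE; adjusted p 0.0855 by edgeR). Over the 15 alternatives that p ran from 0.000296 to 0.504, and 4 of them passed. Nmur2, the neuromedin U receptor of the brain, had 1.50, 1.49 and 2.39 CPM in the knockout and 3.43, 2.59 and 3.37 CPM in wild type. Its groups did not overlap either (-0.80 ± 0.23, adjusted p 0.149), and exons shared with an uncharacterised locus cover 19.0% of its length. Nmur2 passed in 2 of 15 alternatives, with no expression filter (0.0153) and with limma-voom and quality weights (0.0439), and the adjusted p reached 0.908 without both first replicates. Prlhr, the receptor of prolactin-releasing peptide, had 4.07, 3.25 and 4.97 CPM in the knockout and 6.59, 4.41 and 6.18 CPM in wild type, and its groups overlapped (-0.48 ± 0.20, adjusted p 0.331).

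The neuropeptide FF receptors were lower in value as well. Npffr2 was among the least abundant receptors, with 22, 7 and 16 counts in the knockout and 33, 26 and 22 in wild type. That is 0.524, 0.176 and 0.351 CPM in the knockout against 0.809, 0.687 and 0.529 CPM in wild type, groups that barely missed each other, with a log2 fold change of -0.93 ± 0.38 (SE; adjusted p 0.325 by edgeR). The fold was close to that of Grpr and its standard error larger. Npffr1, which binds the gonadotropin-inhibiting RFamide peptides, averaged 14.9 ± 2.59 CPM in the knockout and 19.7 ± 4.25 CPM in wild type (-0.40 ± 0.18, adjusted p 0.398).

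In 2 receptors the values were higher in the knockout and the groups did not overlap. Ntsr2 had 161, 197 and 162 CPM in the knockout and 127, 137 and 142 CPM in wild type, with knockout replicate 2 the highest. The knockout level was 112% to 147% of wild type (log2 fold change 0.36 ± 0.089, SE; adjusted p 0.0966 by edgeR). Over the 15 alternatives the p ran from 0.00116 to 0.524, and DESeq2 and the fit with no expression filter passed. The 9 astrocyte markers, a cell type that expresses Ntsr2, summed to 3854 to 4163 CPM in the knockout and 4104 to 4210 CPM in wild type, with none past the threshold. At an unadjusted p under 0.05, 3 of the 9 were higher and 0 lower in the knockout, the direction of Ntsr2, while 5 of 9 log2 fold changes were below 0, and the part of astrocytes in the Ntsr2 value was not tested. Ntsr2 lies on chromosome 12 at 16703433 to 16710237, 12.1 Mb from Ncoa1. Sstr1 and Vipr2 lie on that chromosome too, 53.7 Mb and 111.5 Mb from Ncoa1. Whether sequence linked to the deleted allele has a part in the values of these receptors was not tested. Trhr2, a receptor of thyrotropin-releasing hormone found in rodents, had 4.29, 3.23 and 2.63 CPM in the knockout and 1.91, 2.51 and 2.19 CPM in wild type (0.62 ± 0.21, adjusted p 0.234).

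**Figure D3:**
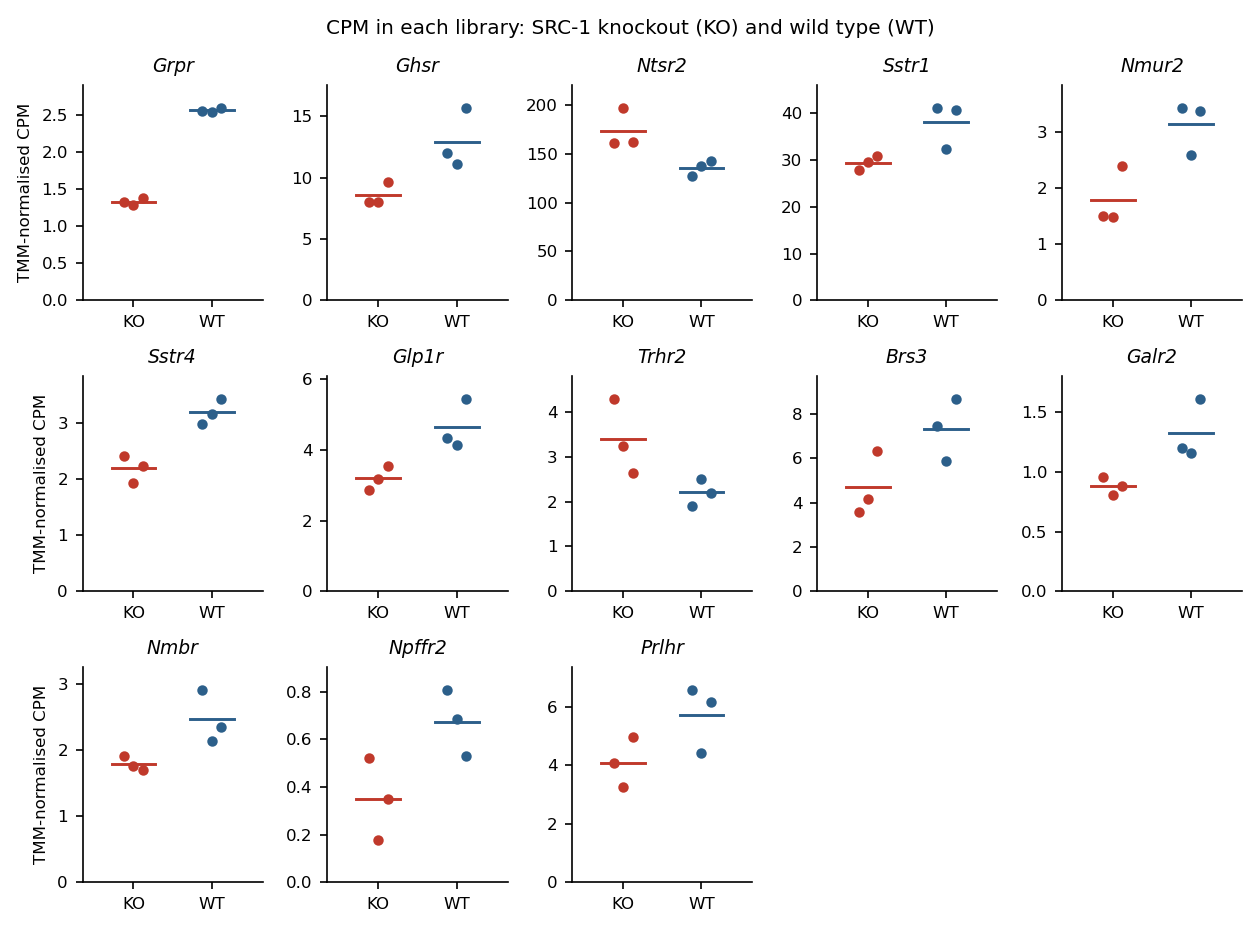
CPM in each library of the 13 genes with an unadjusted p under 0.05, in order of p, knockout on the left and wild type on the right of each panel, with the mean as a line and each axis starting at 0. Ntsr2 and Trhr2 are higher in the knockout and the other 11 lower; the groups overlap in Brs3 and Prlhr.

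None of the remaining 8 rhodopsin-family receptors, outside the opioid, somatostatin, galanin and relaxin groups, passed by edgeR. In each, the libraries of both genotypes overlapped. Trhr, the main thyrotropin-releasing hormone receptor, averaged 14.6 ± 0.804 CPM in the knockout and 14.2 ± 1.30 CPM in wild type (95% interval 88.7% to 119% of wild type). Oxtr, the oxytocin receptor, averaged 10.4 ± 0.571 CPM in the knockout and 11.7 ± 2.26 CPM in wild type (71.6% to 109%). Avpr1a, a vasopressin receptor, averaged 4.80 ± 0.862 CPM in the knockout and 5.10 ± 0.465 CPM in wild type (73.7% to 120%). Each of these intervals includes equal levels. Tacr1, the substance P receptor, had a log2 fold change of 0.066 ± 0.13 (SE), Ntsr1, the other neurotensin receptor, 0.26 ± 0.20, and Prokr2, a prokineticin receptor, -0.36 ± 0.23. The cholecystokinin receptors Cckar and Cckbr had -0.092 ± 0.23 and -0.12 ± 0.13. The adjusted p of these 8 receptors ran from 0.604 for Prokr2 to 0.926 for Trhr.

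Galanin, somatostatin and opioid receptors act mostly through inhibitory G proteins. None of these 11 passed by edgeR, and 3 had an unadjusted p under 0.05, against 13.0% of all genes. In 10 the log2 fold change was below 0, against 48.9% of all genes, with a median of -0.14. One of the 10 was Oprd1 at -0.00044, whose sign changed in 9 of 15 alternatives. Sstr1 had 27.8, 29.5 and 30.8 CPM in knockout replicates 1 to 3 and 41.2, 32.4 and 40.8 CPM in wild type, and the groups did not overlap although wild-type replicate 2 came close. The knockout level was 66.3% to 89.4% of wild type (log2 fold change -0.38 ± 0.097, SE; adjusted p 0.111 by edgeR). Without wild-type replicate 2 the fold change was -0.48 and passed (0.0386), and over the 15 alternatives that p ran from 0.0016 to 0.793. Sstr4 had 2.41, 1.94 and 2.24 CPM in the knockout and 2.99, 3.17 and 3.44 CPM in wild type, again with no overlap (-0.54 ± 0.17, adjusted p 0.181). Sstr2 averaged 12.3 ± 0.735 CPM in the knockout and 13.8 ± 0.691 CPM in wild type, also with no overlap (-0.17 ± 0.089, adjusted p 0.464), and Sstr3 averaged 14.6 ± 0.990 CPM in the knockout and 15.5 ± 1.70 CPM in wild type (adjusted p 0.810).

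Of the galanin receptors, Galr2 had 0.953, 0.806 and 0.877 CPM in the knockout and 1.20, 1.16 and 1.61 CPM in wild type. Its groups did not overlap, on 32 to 67 counts a library (-0.59 ± 0.23, SE; adjusted p 0.304 by edgeR). Galr1, the more abundant galanin receptor, averaged 7.03 ± 0.742 CPM in the knockout and 6.69 ± 0.677 CPM in wild type, with a knockout level at 85.8% to 129% of wild type. Galr3 had 19, 32 and 29 counts in the knockout and 21, 20 and 37 in wild type, its log2 fold change of -0.035 ± 0.33 leaves the direction unknown, and 29.2% of its exon length is shared with Gcat.

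In each of the 4 opioid receptors the libraries of the genotypes overlapped. Oprl1 had 142, 138 and 148 CPM in the knockout and 167, 136 and 170 CPM in wild type, so wild-type replicate 2 lay below every knockout library. Its log2 fold change was -0.14 ± 0.089 (SE; adjusted p 0.577 by edgeR). Oprk1 averaged 31.8 ± 2.57 CPM in the knockout and 37.1 ± 6.34 CPM in wild type (71.0% to 103% of wild type). Oprd1, the delta receptor, averaged 13.2 ± 0.753 CPM in the knockout and 13.2 ± 0.995 CPM in wild type, an interval of 86.6% to 115%. Oprm1, the mu receptor and main target of morphine, averaged 5.69 ± 2.21 CPM in the knockout and 6.28 ± 0.174 CPM in wild type. Its knockout libraries spread from 3.60 CPM in replicate 2 to 8.01 CPM in replicate 1, on both sides of every wild-type library, so its interval was wide (60.9% to 135%).

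In the secretin family none of the 9 tested receptors passed, and the median log2 fold change was -0.028. Glp1r, the receptor of the satiety peptide GLP-1, had 2.86, 3.18 and 3.55 CPM in knockout replicates 1 to 3 and 4.34, 4.12 and 5.44 CPM in wild type, and the groups did not overlap. The knockout level was 53.5% to 88.9% of wild type (log2 fold change -0.54 ± 0.17, SE; adjusted p 0.181 by edgeR). Calcr had 28.5, 28.1 and 43.2 CPM in the knockout and 57.7, 38.5 and 48.8 CPM in wild type. Here knockout replicate 3 lay above wild-type replicate 2 and the groups overlapped, with the same fold change and a larger error (-0.54 ± 0.23, adjusted p 0.413 by edgeR), while DESeq2 gave an adjusted p of 0.0402. Over the 15 alternatives its adjusted p ran from 0.0402 to 0.999.

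Adcyap1r1, the receptor with the most counts, had 520, 460 and 505 CPM in the knockout and 546, 451 and 501 CPM in wild type. The groups covered the same range, and the interval was 86.6% to 113% of wild type. The log2 fold change was -0.012 ± 0.088 (SE, adjusted p 0.974 by edgeR). Oprd1, with 3268 counts in total, had a similar interval (86.6% to 115%). For Adcyap1r1 the SD was 31.2 CPM in the knockout and 47.7 CPM in wild type. Counting error alone gives 3.42 CPM (knockout) and 3.53 CPM (wild type). The receptors of corticotropin-releasing hormone had log2 fold changes of opposite sign and did not pass, Crhr1 with 0.37 ± 0.22 and Crhr2, a urocortin receptor, with -0.26 ± 0.15 (adjusted p 0.579 and 0.547). Crhr1 averaged 15.8 ± 3.42 CPM in the knockout and 12.3 ± 2.84 CPM in wild type, and Crhr2 6.47 ± 0.471 CPM in the knockout and 7.73 ± 1.54 CPM in wild type. Gipr, the receptor of the gut hormone GIP, averaged 2.17 ± 0.340 CPM in the knockout and 1.60 ± 0.327 CPM in wild type (adjusted p 0.460). Vipr2, the VIP receptor of the suprachiasmatic clock, averaged 6.82 ± 0.212 CPM in the knockout and 8.36 ± 2.45 CPM in wild type, where replicate 3 was low at 5.54 CPM (adjusted p 0.633). Vipr1 averaged 1.09 ± 0.275 CPM in the knockout and 1.03 ± 0.182 CPM in wild type (adjusted p 0.948).

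In the 3 RAMPs and in Calcrl, a receptor they pair with, the libraries of both genotypes overlapped. Ramp1, which with Calcrl forms the CGRP receptor, had 46.8, 45.1 and 51.2 CPM in the knockout and 47.1, 44.7 and 45.7 CPM in wild type, with a knockout level at 93.5% to 116% of wild type. Ramp2, which with Calcrl forms an adrenomedullin receptor, averaged 9.69 ± 0.366 CPM in the knockout and 9.65 ± 1.79 CPM in wild type (81.7% to 123%). Calcrl averaged 7.81 ± 0.671 CPM in the knockout and 7.96 ± 0.486 CPM in wild type (82.1% to 117%). The 12 markers of endothelium and pericytes, where Calcrl and Ramp2 are known to act, summed to 319 to 349 CPM in the knockout and 251 to 320 CPM in wild type. Ramp3 had 2.38, 4.01 and 3.29 CPM in the knockout and 2.92, 2.59 and 3.13 CPM in wild type, groups that overlapped (0.16 ± 0.21, adjusted p 0.826 by edgeR).

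In both relaxin-family receptors the genotypes overlapped. Rxfp1, the relaxin receptor, had 10.1, 8.59 and 5.94 CPM in knockout replicates 1 to 3 and 5.54, 11.6 and 12.1 CPM in wild type. Wild-type replicate 1 was the lowest of all and the other wild-type libraries the highest (-0.25 ± 0.35, SE; adjusted p 0.853 by edgeR). Rxfp3, the relaxin-3 receptor, had 12.8, 10.1 and 12.7 CPM in the knockout and 17.1, 11.5 and 12.8 CPM in wild type, which overlapped (-0.22 ± 0.16, adjusted p 0.658).

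The genes around these receptors were described from lists. Of 38 genes of their peptide ligands 29 were tested and none passed by edgeR, with 8 lower and 0 higher at an unadjusted p under 0.05, 23 of 29 below 0 and a median log2 fold change of -0.35. Over all genes 7.21% were lower and 5.75% higher at that p, and 48.9% were below 0. Their summed level was 669 to 963 CPM in the knockout and 836 to 1238 CPM in wild type. Of 32 other neuropeptide receptors and accessory proteins 29 were tested, 1 passed and 10 were lower and 0 higher at an unadjusted p under 0.05, with 23 of 29 below 0 and a median of -0.23, beside the same shares over all genes. The one was Npy1r, a neuropeptide Y receptor, which had 14.2, 13.6 and 18.2 CPM in the knockout, against 26.0, 22.0 and 23.0 CPM in wild type. Its log2 fold change was -0.62 ± 0.12 (SE, adjusted p 0.0474 by edgeR). That p lay close to the threshold, and its values under the alternative settings are not given here. Of 40 genes of G protein signalling downstream of the receptors, such as G protein subunits, adenylyl cyclases, arrestins and RGS proteins, none passed by edgeR, 3 were higher and 3 lower at an unadjusted p under 0.05, and 20 lay on each side of 0.

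**Figure D4:**
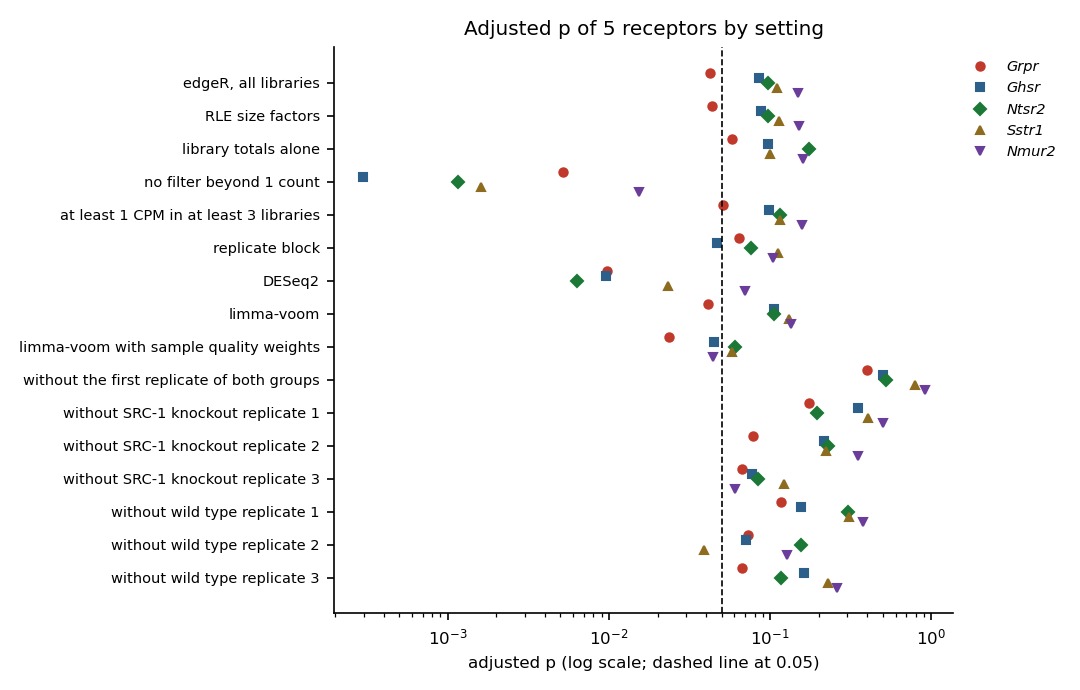
Adjusted p of the 5 receptors with the lowest p (1 symbol each) with edgeR on all libraries and under 15 alternatives (rows), on a log axis with the threshold of 0.05 dashed. Grpr passes in the first row and in 5 alternatives, and leaving out both first replicates puts all 5 receptors between 0.399 and 0.908.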

How the data were processed

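The deposited file holds unnormalized counts per gene for 6 libraries. The authors' counts came from featureCounts over RefSeq exons of mm39 (GRCm39) in paired mode, with no strand or multi-mapping option, per the file headers. The header gives version 2.0.0 and the submitters' processing notes give 2.0.3, and the notes name STAR 2.7.10a as aligner. Reads on exons shared by overlapping genes or on near-identical copies were therefore not counted to one gene, and strands cannot be told apart. RNA was prepared with Rneasy and libraries with TruSeq, per the labels.

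The genotypes were compared with edgeR 4.0.16 (R 4.3.3; TMM factors, filterByExpr by group at a minimum count of 10, robust quasi-likelihood F-tests) on 20257 genes. Standard errors are the absolute log2 fold change over the root of F. Intervals are 95% for each gene alone and are not adjusted for the number of genes tested. The common biological coefficient of variation was 12.3%. Alternatives were RLE factors, library totals, other filters, a replicate block, DESeq2 1.42.0, limma-voom (limma 3.58.1) with and without quality weights, and left-out libraries. Levels are CPM per kb of the deposited exon length. The genes and lists were chosen with earlier results of these data known. Values in every library are given for genes past the adjusted threshold or with an unadjusted p under 0.05, the 2 lowest p in each of 5 role groups, and the 3 highest levels in wild type. The table had 0 unused columns of values. No libraries were duplicates (chi-square per degree of freedom at least 8.76 within a group).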

Additional observations from a re-analysis of the deposited data

How the results depend on the processing

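Over all genes 169 passed with edgeR, against 66 with library totals alone, 966 with no filter beyond 1 count, 84 with at least 1 CPM in at least 3 libraries, 821 with DESeq2, 473 with limma-voom and quality weights, and 29 without both first replicates. With 1 library left out the count ran from 36 (without knockout replicate 1) to 260 (without knockout replicate 2), and was 69 without wild-type replicate 1. Among the 43 receptors and RAMPs, 1 passed with edgeR, 0 with library totals, 6 with no filter, 0 with the CPM filter, 5 with DESeq2, 3 with quality weights and 0 without both first replicates. With 1 library left out it was 0 to 1, where the 1 was Sstr1, not Grpr. The count whose groups do not overlap was 12 (17.6% of all genes), and 13 to 21 with 1 library left out, where fewer values have to be apart and 23.4% to 35.0% of all genes did not overlap. All 13 genes with an unadjusted p under 0.05 kept their direction under every alternative that gave a value. Npffr2 and Galr3 were left out by the filter of 1 CPM in 3 libraries and have 14 alternatives instead of 15.

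The direction changed in 15 of 43, none of which passed. Oprd1 was 0.001 (log2) with RLE, 0.00086 with the replicate block, 0.00096 with DESeq2, 0.00022 with limma-voom and 0.0039 with quality weights. Ramp2 was -0.023 with library totals and Rxfp1 0.037 with quality weights. Without both first replicates Galr3 was 0.0098, Cckar 0.12, Cckbr 0.038, Ntsr1 -0.064, Calcrl 0.069, Vipr1 -0.075, Adcyap1r1 0.015 and Ramp2 -0.12. With 1 library left out the lowest and highest values were -0.24 and 0.27 for Galr3, -0.15 and 0.0043 for Sstr3, -0.47 and 0.1 for Oprm1, -0.056 and 0.048 for Oprd1, -0.048 and 0.18 for Tacr1, -0.23 and 0.16 for Cckar, and -0.21 and 0.026 for Cckbr. They were -0.0083 and 0.11 for Trhr, -0.082 and 0.04 for Calcrl, -0.12 and 0.25 for Vipr1, -0.08 and 0.055 for Adcyap1r1, -0.11 and 0.16 for Ramp2, and -0.019 and 0.34 for Ramp3. The causes were not tested.

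The replicate block left 155 genes over all and 1 of the 43, Ghsr (0.0468) in place of Grpr (0.0638). Deviations from the group means had correlations of -0.206, 0.351 and 0.224 between same-numbered libraries. Between differently numbered libraries they ran from -0.413 to 0.255. With 3 libraries in each group these values cannot decide whether the numbers pair the samples. By CPM without length, 8 of the 10 highest genes were shared. Counts were lowest in Ghrhr, Npffr2, Galr3, Vipr1 and Galr2.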
